A study of Homo sapiens with 6 samples.

Results

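The genes described here are those for the cyclin-dependent kinase inhibitors CDKN1A, CDKN1B, CDKN1C, CDKN2B, CDKN2C and CDKN2D and for the D-type cyclins CCND1, CCND2 and CCND3. They were taken by symbol and make up 9 of the 20289 genes in the count table, and 8 of the 9 had enough counts to be tested. RNA came from Huh7, a human hepatocellular carcinoma cell line, in 3 wild-type libraries and 3 libraries of cells with UBE2S knocked out; no other treatment or allele is labelled. The UBE2S protein extends ubiquitin chains on substrates of the anaphase-promoting complex, and the stated purpose of the study was to find factors that it regulates in liver cancer cells. How the knockout was made, whether the cells were 1 clone and whether replicates were separate cultures is not labelled, so the p-values cover only the spread between these libraries, which may be technical.

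D-type cyclins are made in response to growth signals and activate the kinases CDK4 and CDK6, which phosphorylate the retinoblastoma protein RB and release E2F factors, the activators of S phase genes. Inhibitors of the INK4 family, which include CDKN2B, CDKN2C and CDKN2D but are not limited to them, bind CDK4 and CDK6 and keep them from the cyclin. Those of the CIP/KIP family (CDKN1A, CDKN1B, CDKN1C) bind the cyclin and the kinase together and act on the complexes of CDK2. Much of the control of CDKN1B and of the cyclins takes place on the protein, by ubiquitin-dependent breakdown, which RNA levels do not show. In liver, CCND1 and CDKN1A are known for their part in regeneration, and the gene for p53, an activator of CDKN1A, is mutated in Huh7 cells.

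Levels are in CPM, the counts of a gene brought to a common library size with TMM factors, and a change was called at a Benjamini-Hochberg adjusted p below 0.05 in edgeR's quasi-likelihood test. Within the CIP/KIP family CDKN1A and CDKN1B mRNA fell in the knockout, to 62.8% and 71.9% of wild type, and CDKN1C did not pass the test. Within the INK4 family CDKN2D rose to 166% and CDKN2B to 115% of wild type, and CDKN2C did not pass. CCND1, the most abundant of the 9, and CCND3 did not pass the test, and CCND2 was not detected in wild type. So 2 of 8 tested genes were higher and 2 lower, where 29.4% of all 13265 tested genes were higher and 30.7% lower, 60.1% in all. The values of the 3 knockout libraries lay wholly outside those of the 3 wild-type libraries at 5 of the 8 genes, against 65.8% of all tested genes. Both shares are close to the background, and the median size of the log2 fold change was 0.18 over the 8 genes and 0.23 over all.

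**Figure D1:**
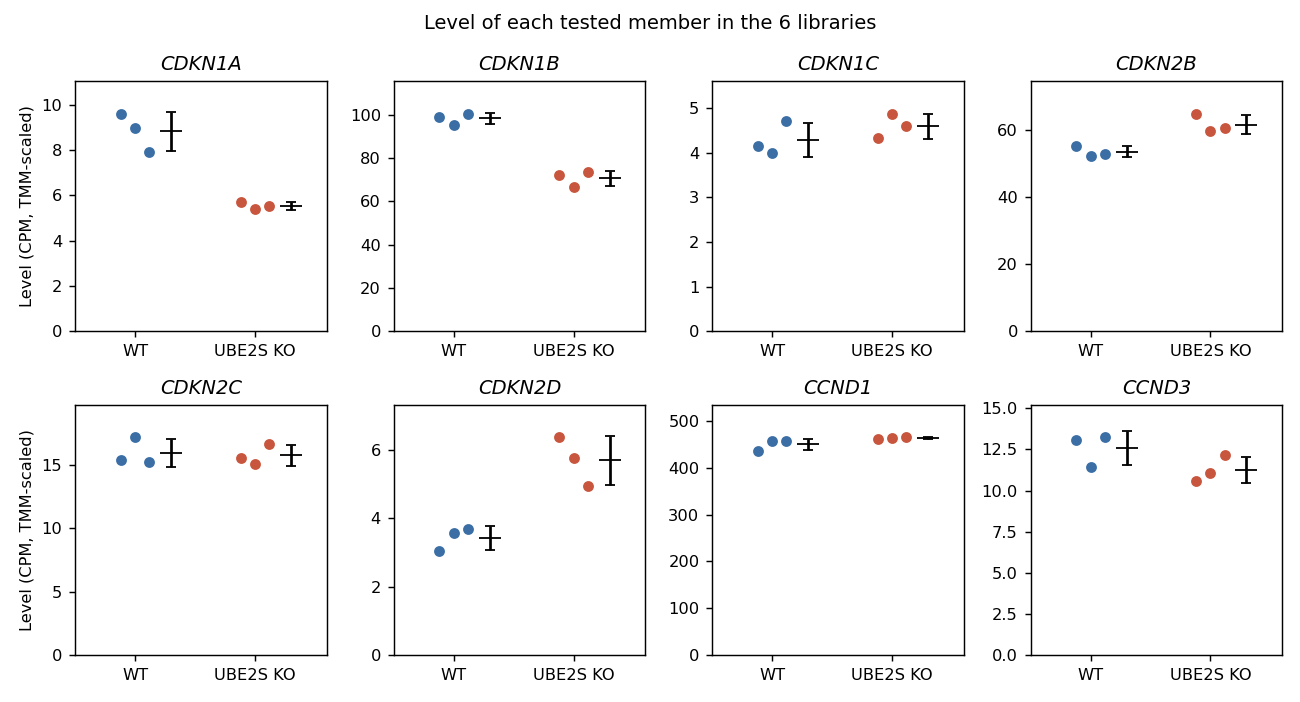
Level of the 8 tested genes in CPM (scaled by TMM, linear axes that start at 0) in each library; points are libraries of wild-type (WT) and UBE2S knockout (KO) cells and bars are mean ± SD over 3 libraries. The knockout points of CDKN1A and CDKN1B lie below all wild-type points, and those of CDKN2B and CDKN2D lie above them.

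The libraries held 21840499 to 27910396 estimated counts, and mitochondrially encoded genes took 5.03% to 6.47% of them; no batch or date is labelled. UBE2S itself stood at 216 to 234 CPM in wild type and at 44.2 to 47.6 CPM in the knockout (log2 fold change -2.29, SE 0.04, edgeR adjusted p = 1.6e-12), in the direction of the labels. Of 8 hepatocyte markers all were tested, 2 were higher and 6 lower, and their summed level was 29553 to 30152 CPM in wild type and 26887 to 27415 CPM in the knockout. Over all tested genes 29.4% were higher and 30.7% lower. Markers of other cell types were summed as well. Of 8 stromal markers 6 were tested, 4 of them higher and 2 lower, and the sum was 145 to 161 CPM in wild type and 26.9 to 28.6 CPM in the knockout. The median log2 fold change of the tested stromal markers was 0.52, so the fall of the sum does not describe most of them. Of 6 endothelial markers 1 was tested and was lower, KDR was at 0 in every library, and the sum was 5.69 to 7.08 and 2.27 to 2.52 CPM. Of 6 immune markers the 3 tested were lower, CD3E was at 0, and the sum was 290 to 313 and 179 to 182 CPM. Of 6 cholangiocyte markers 5 were tested, 1 higher and 2 lower, with sums of 330 to 358 and 296 to 301 CPM. All libraries are given as the Huh7 line, so these sums describe RNA of marker genes and are not a count of cells of other types. The part of these markers in the results below was not tested.

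The promoters of the 4 genes that passed the test are shown so that the changed members can be compared at a single start site each. Sequences are those of RefSeq (GRCh38.p14), from 250 bases before to 50 bases after the start, 5′ to 3′ on the strand of the gene; RefSeq entries were matched for 6 of the 9 genes. The window of CDKN1A is chr6:36678464-36678763 (plus strand), that of CDKN1B chr12:12717118-12717417 (plus strand), that of CDKN2B chr9:22009256-22009555 (minus strand) and that of CDKN2D chr19:10568930-10569229 (minus strand). In the gene positions given below, CDKN1A (8 transcripts) and CDKN1B (4 transcripts) begin before these windows, at 36676460 and 12715058. Other start sites were not searched. Capitals mark the GC box GGGCGG or its reverse complement, a motif known as a binding site of SP1-family factors.
CDKN1A: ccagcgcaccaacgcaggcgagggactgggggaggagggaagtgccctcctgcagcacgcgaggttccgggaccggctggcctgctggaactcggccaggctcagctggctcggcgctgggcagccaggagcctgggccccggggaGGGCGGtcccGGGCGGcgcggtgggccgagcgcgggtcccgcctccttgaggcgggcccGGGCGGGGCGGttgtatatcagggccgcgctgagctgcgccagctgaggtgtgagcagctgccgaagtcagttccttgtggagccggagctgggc
CDKN1B: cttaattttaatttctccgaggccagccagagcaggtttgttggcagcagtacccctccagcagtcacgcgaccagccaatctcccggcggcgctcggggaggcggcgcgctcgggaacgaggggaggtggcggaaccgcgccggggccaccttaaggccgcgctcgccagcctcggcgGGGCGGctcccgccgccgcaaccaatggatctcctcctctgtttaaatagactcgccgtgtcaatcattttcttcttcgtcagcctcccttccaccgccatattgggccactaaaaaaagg
CDKN2B: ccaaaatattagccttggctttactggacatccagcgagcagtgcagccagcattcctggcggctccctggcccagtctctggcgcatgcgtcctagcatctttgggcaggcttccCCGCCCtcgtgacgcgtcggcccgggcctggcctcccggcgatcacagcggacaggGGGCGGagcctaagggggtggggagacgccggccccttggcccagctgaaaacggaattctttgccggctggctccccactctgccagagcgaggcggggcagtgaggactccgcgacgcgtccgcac
CDKN2D: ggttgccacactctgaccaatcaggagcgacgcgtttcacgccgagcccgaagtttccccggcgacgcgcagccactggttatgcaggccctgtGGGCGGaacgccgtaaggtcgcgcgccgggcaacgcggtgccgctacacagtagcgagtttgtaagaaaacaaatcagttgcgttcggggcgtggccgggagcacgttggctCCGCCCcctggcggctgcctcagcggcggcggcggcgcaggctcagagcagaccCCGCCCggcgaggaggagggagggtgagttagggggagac

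The 4 windows held 4 GC boxes in CDKN1A, of which 2 overlap by 1 base, 1 in CDKN1B, 2 in CDKN2B and 3 in CDKN2D. Among all 35116 RefSeq promoter windows of this length 45.0% held at least 1 on either strand. The motif CCAAT, counted on both strands, occurred 3 times in CDKN1B and 1 time in CDKN2D and was found in 34.6% of all windows. The TATA box TATAAA was in none of the 4 windows and in 11.5% of all. The E-box, searched as CACGTG, was in none of the 4 and in 7.26% of all. An E2F site, searched as TTTCCCGC, was in none of the 4 and in 1.63% of all. All 3 were searched on both strands. GC content was 74.3% in CDKN1A, 62.3% in CDKN1B, 67.3% in CDKN2B and 68.0% in CDKN2D, against a median of 58.7% over all windows. In these windows no motif searched was shared by the 2 genes that fell and missing from the 2 that rose.

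CDKN1A (ENSG00000124762; chromosome 6, 36676460 to 36687339 on the plus strand, GRCh38) encodes p21, the inhibitor that p53 induces after DNA damage. It was counted 260, 209 and 222 times in the wild-type libraries and 126, 126 and 143 times in those of the knockout. On the CPM scale the level was 9.61, 8.96 and 7.92 in wild type, against 5.73, 5.39 and 5.51. The lowest wild-type library, replicate 3, was still above the highest knockout library. The mean fell from 8.83 ± 0.856 to 5.54 ± 0.173 CPM (SD, n = 3 each), for a log2 fold change of -0.67 (SE 0.10, 95% interval -0.88 to -0.46, edgeR adjusted p = 6.9e-05). The spread between wild-type libraries, a coefficient of variation of 9.69%, was above the 6.59% that counting alone gives at this depth, and that between knockout libraries, 3.13%, was below the 8.71% of counting. The change was larger than that of 87.0% of tested genes. The noncoding gene DINOL overlaps it on the opposite strand, and reads of the 2 genes cannot be told apart here because the strand setting of the counting is not given.

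CDKN1B (ENSG00000111276; chromosome 12, 12715058 to 12722371, plus strand) encodes p27, which holds cells in G1 and is broken down through the SKP2 ubiquitin ligase. The level was 99.0, 95.3 and 100.5 CPM in wild type and 71.9, 66.7 and 73.3 CPM in the knockout, from 2222 to 2817 counts and 1560 to 1902 counts. The 2 groups were well apart, with knockout replicate 2 the lowest. The mean fell from 98.3 ± 2.66 to 70.7 ± 3.50 CPM, for a log2 fold change of -0.48 (SE 0.04, interval -0.57 to -0.39, edgeR adjusted p = 7.0e-07). Genes around CDKN1B on the chromosome fell too: of the 25 tested genes on each side 33 were lower and 4 higher, their median was -0.41, and 20 of the 50 fell further than CDKN1B. The nearest tested gene before it, GPR19, 18.9 kb away, was at -1.34 (SE 0.20), while APOLD1, 3.55 kb after it, was at 0.02 (SE 0.15). Fitted relative to the median of those neighbours, CDKN1B was at -0.07 (SE 0.04, edgeR adjusted p = 0.18) and no longer passed.

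CDKN1C (ENSG00000129757; chromosome 11, 2883213 to 2885773, minus strand) encodes p57, an imprinted inhibitor active in development. It was low in every library, at 4.14, 3.99 and 4.71 CPM in wild type and 4.32, 4.87 and 4.59 CPM in the knockout, from 93 to 132 counts. The 2 groups overlapped. The log2 fold change was 0.10 (SE 0.11, edgeR adjusted p = 0.48), and its 95% interval, a ratio of 0.901 to 1.27, leaves room for a rise or a fall of that size. The 2 nearest tested genes on one side, SLC22A18AS (1.22, SE 0.37) and SLC22A18 (0.62, SE 0.06), both rose, and SLC22A18 lies 13.9 kb from CDKN1C. The 25 tested genes on each side had a median of 0.06, with 15 of these 50 higher and 10 lower.

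CDKN2B (ENSG00000147883; chromosome 9, 22002903 to 22009363, minus strand) encodes p15, the inhibitor that TGF-beta induces. It stood at 55.5, 52.5 and 52.8 CPM in wild type and 65.0, 59.7 and 60.6 CPM in the knockout, from 1223 to 1500 and 1397 to 1572 counts. The groups did not overlap, and knockout replicate 1 was the highest. The mean rose from 53.6 ± 1.64 to 61.8 ± 2.84 CPM, for a log2 fold change of 0.20 (SE 0.04, interval 0.11 to 0.30, edgeR adjusted p = 0.0014), which was larger than the change of 46.4% of tested genes. Its 50 neighbours had a median of 0.01, with 13 higher and 15 lower. Among the nearest, CDKN2A, 7.60 kb away, rose as well (0.28, SE 0.05, edgeR adjusted p = 3.3e-04). On the other side DMRTA1, 437 kb away, fell (-0.31, SE 0.09). The antisense gene CDKN2B-AS1 and AL359922.1 overlap it on the opposite strand, and their reads cannot be separated here.

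CDKN2C (ENSG00000123080; chromosome 1, 50960745 to 50974633, plus strand) encodes p18. It was at 15.4, 17.2 and 15.3 CPM in wild type and at 15.6, 15.1 and 16.7 CPM in the knockout. The ranges overlapped almost wholly. The log2 fold change was -0.01 (SE 0.07, edgeR adjusted p = 0.90), with an interval equal to ratios of 0.894 to 1.10, and 2.83% of tested genes changed less. The gene next to it, FAF1, 0.482 kb away, rose by 0.43 (SE 0.04). The 50 neighbours of CDKN2C had a median of -0.07, with 7 higher and 19 lower.

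CDKN2D (ENSG00000129355; chromosome 19, 10566462 to 10569059, minus strand) encodes p19, the member of the INK4 family whose mRNA is known to vary over the cell cycle. It was counted 82, 83 and 103 times in wild type, the lowest counts of the 8 genes there, and 140, 135 and 128 times in the knockout. In CPM these were 3.03, 3.56 and 3.67 against 6.37, 5.77 and 4.93. Every knockout library was above every wild-type library, with knockout replicate 3 closest to wild type. The mean rose from 3.42 ± 0.342 to 5.69 ± 0.719 CPM, for a log2 fold change of 0.73 (SE 0.13, interval 0.44 to 1.01, edgeR adjusted p = 3.7e-04), and the change was larger than that of 88.6% of tested genes. Counting alone gives a coefficient of variation of 8.63% at the knockout's depth, against the 12.6% observed. Genes around CDKN2D rose as well: 36 of its 50 neighbours, which span 1.70 Mb, were higher and 4 lower, their median was 0.25, and 5 of the 50 rose more. KRI1 (0.23, SE 0.04), AP1M2 (0.54, SE 0.09) and SLC44A2 (1.21, SE 0.04) are among the nearest. Relative to the neighbours CDKN2D was at 0.48 (SE 0.13, edgeR adjusted p = 0.0074), against its own 0.73, and still past the threshold.

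**Figure D2:**
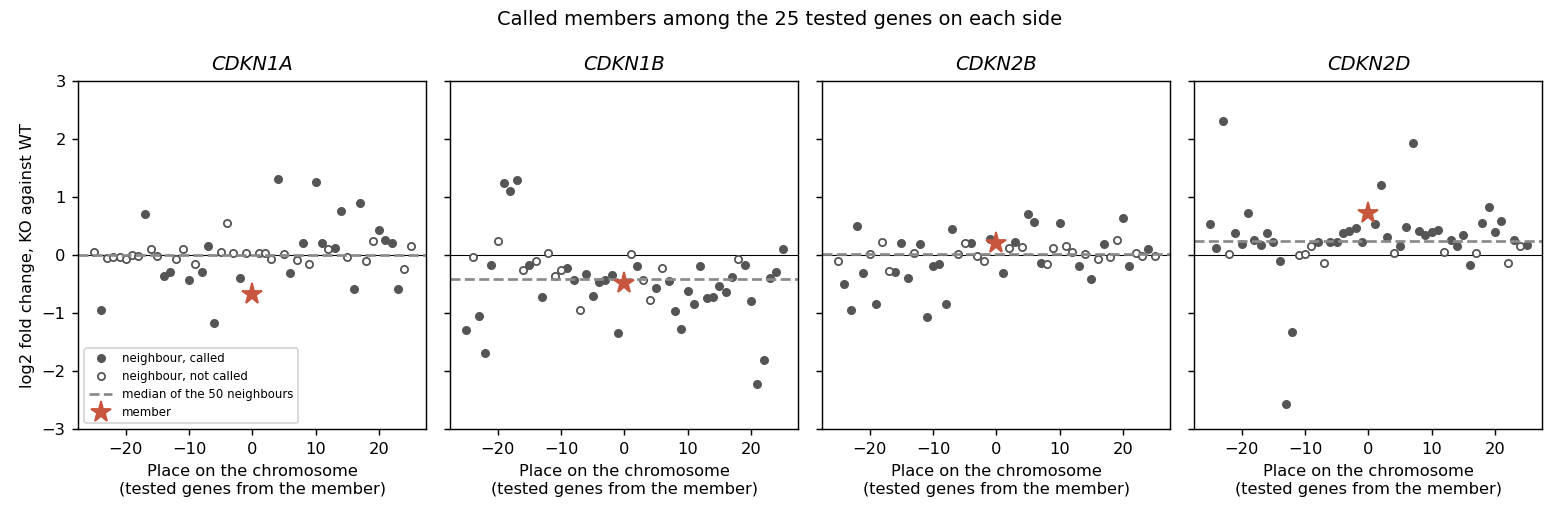
Log2 fold change of the 4 genes that passed the test (star) and of the 25 tested genes on each side, by place along the chromosome; filled circles passed the test, open ones did not, and the dashed line is the median of the 50 neighbours. The dashed line lies at -0.41 for CDKN1B and at 0.25 for CDKN2D, and close to 0 for CDKN1A and CDKN2B.

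CCND1 (ENSG00000110092; chromosome 11, 69641087 to 69654474, plus strand) encodes cyclin D1, the usual D-type cyclin of liver cells. Its level was 436, 458 and 457 CPM in wild type and 462, 464 and 466 CPM in the knockout, from 10156 to 12814 estimated counts. All 3 knockout libraries were above all wild-type libraries, by little, and wild-type replicate 1 was the lowest. The log2 fold change of 0.04 (SE 0.03) did not pass the test (edgeR adjusted p = 0.22), and its interval reached from a ratio of 0.986 to 1.08. CCND1 was the only one of the 9 genes whose counts were not whole numbers, as programs give that share reads between genes; LTO1 (-0.13, SE 0.05) overlaps it on the opposite strand.

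CCND3 (ENSG00000112576; chromosome 6, 41934933 to 42050357, minus strand) encodes cyclin D3. It was at 13.1, 11.4 and 13.2 CPM in wild type and 10.5, 11.1 and 12.1 CPM in the knockout. Wild-type replicate 2 lay inside the knockout range, so the groups overlapped. The log2 fold change was -0.16 (SE 0.08, interval -0.34 to 0.02, edgeR adjusted p = 0.11). Without wild-type replicate 2 it was -0.22 (SE 0.08, edgeR adjusted p = 0.039), and relative to its chromosome neighbours, whose median was 0.08, it was -0.24 (SE 0.08, edgeR adjusted p = 0.026), so the call of this gene depends on these choices.

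CCND2 (ENSG00000118971; chromosome 12, 4273772 to 4305350, plus strand) encodes cyclin D2. It had 0 counts in all 3 wild-type libraries and 2 counts in the knockout, both in replicate 2. The 0 counts of wild type allow up to 0.0381 CPM over the 3 libraries together (3 counts, without TMM scaling). Their exact 95% interval reaches up to 0.0468 CPM. The 2 knockout counts give 0.0282 CPM (exact 95% interval 0.00341 to 0.102). These limits cover counting error alone, and no difference was detectable at this depth. AC008012.1, which is also in the count table, overlaps CCND2 on the same strand, and CCND2-AS1 overlaps it on the opposite strand. How reads shared with them were counted is not given, so the limits may not hold for the CCND2 transcript itself. Of the 2 tested D-type cyclins, CCND1 and CCND3, 0 were changed by edgeR, where 60.1% of all tested genes were called. The count was also 0 at an unadjusted p below 0.05, by DESeq2 and by limma-voom. It was 1, for CCND3, relative to the chromosome neighbours and without wild-type replicate 2. A count over 2 genes is too small to be read against the share of all genes.

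**Figure D3:**
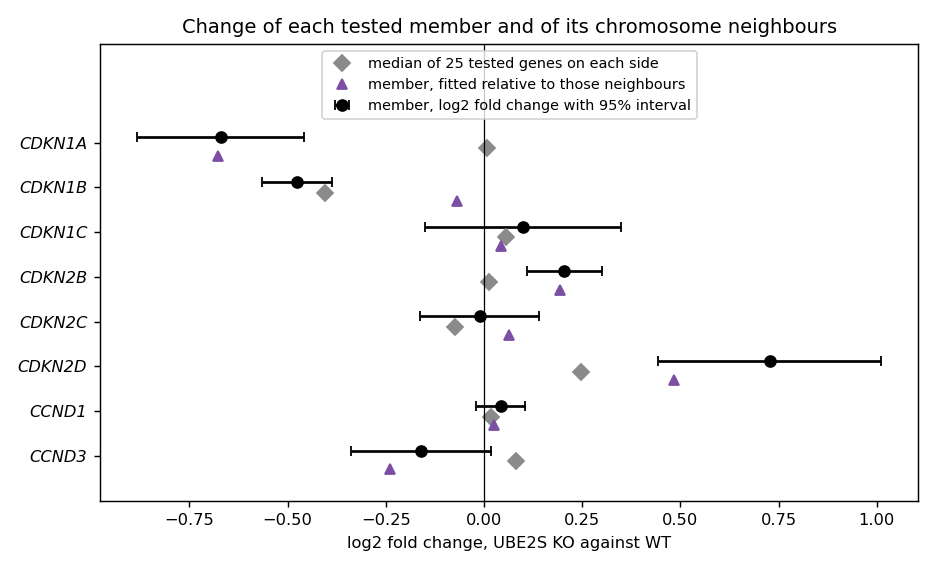
Log2 fold change of the 8 tested genes with its 95% interval (black), the median of its 50 chromosome neighbours (grey diamonds) and the change fitted relative to that median (purple triangles). For CDKN1B the diamond lies at -0.41 beside the gene's own -0.48, whereas for CDKN1A it lies at 0.01.

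Levels were compared between genes per kilobase of exon sequence. In wild type the order was CCND1 at 93.3 ± 2.57, CDKN1B at 35.0 ± 0.948, CDKN2B at 13.2 ± 0.405, CDKN2C at 4.81 ± 0.327 and CDKN1A at 2.90 ± 0.281 CPM per kb. CDKN2D at 2.28 ± 0.228, CCND3 at 2.17 ± 0.175 and CDKN1C at 1.73 ± 0.153 CPM per kb followed, and of all neighbours in this order CDKN2D and CCND3 alone had overlapping ranges. In the knockout the first 4 places were the same, with CCND1 at 96.0, CDKN1B at 25.1, CDKN2B at 15.2 and CDKN2C at 4.75 CPM per kb. CDKN2D was next at 3.79 ± 0.479 CPM per kb, above the ranges of the rest. CCND3 at 1.94 ± 0.140, CDKN1C at 1.85 ± 0.112 and CDKN1A at 1.82 ± 0.0569 CPM per kb could not be ordered, since their ranges overlapped. CDKN1A was thus the fifth in wild type and among the 3 lowest detected in the knockout, while CDKN2D moved the other way. With the length of the longest transcript in place of all exons, CCND3 stood at 5.25 CPM per kb in wild type and 4.70 in the knockout and took the fifth place in both. CDKN1A was then at place 6 in wild type (3.90 CPM per kb) and 7 in the knockout (2.45), and CDKN2D at place 7 (2.41) and 6 (4.002), so the size of these moves depends on the length used.

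Added up per length, the CIP/KIP genes gave 40.0, 38.5 and 40.2 CPM per kb in wild type and 29.2, 27.5 and 29.7 CPM per kb in the knockout. CDKN1B made up 88.3% ± 0.455 of this sum in wild type and 87.2% ± 0.721 in the knockout, so the sum followed that gene. The share of CDKN1C was 4.36% ± 0.313 and 6.45% ± 0.629, without overlap, as the other two fell. The INK4 genes gave 20.3, 20.5 and 20.1 CPM per kb in wild type and 24.9, 23.1 and 23.2 CPM per kb in the knockout. CDKN2B held 65.1% ± 2.08 and 64.1% ± 0.321 of it, and the share of CDKN2D was 11.2% ± 1.17 and 15.9% ± 1.55. The sums of the 3 CIP/KIP genes and of these 3 INK4 genes moved in opposite directions, each without overlap between groups. Groups without overlap were common in these data, at 65.8% of all tested genes. The INK4 sum, shares and ratio cover CDKN2B, CDKN2C and CDKN2D alone and not the whole INK4 family.

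CCND1 made up 97.7% ± 0.215 of the summed D-type cyclin level in wild type and 98.0% ± 0.131 in the knockout. The shares overlapped (two-sided exact permutation test, p = 0.2, where 3 against 3 libraries allow no p below 0.1). The summed D-type cyclin level was 2.31, 2.52 and 2.41 times that of the CIP/KIP genes in wild type and 3.34, 3.57 and 3.31 times in the knockout. Against the INK4 genes it was 4.56, 4.73 and 4.83 times in wild type and 3.91, 4.24 and 4.24 times in the knockout. Neither ratio overlapped between groups, which was also so for the levels of 65.8% of all tested genes. Both ratios need no library scaling and were not tested. The ratio to the CIP/KIP genes rests mainly on CDKN1B, whose neighbours fell with it. In the INK4 sum CDKN2B went from 13.2 to 15.2 and CDKN2D from 2.28 to 3.79 CPM per kb. The neighbours of CDKN2D rose with it (median log2 fold change 0.25), and those of CDKN2B had a median of 0.01.

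**Figure D4:**
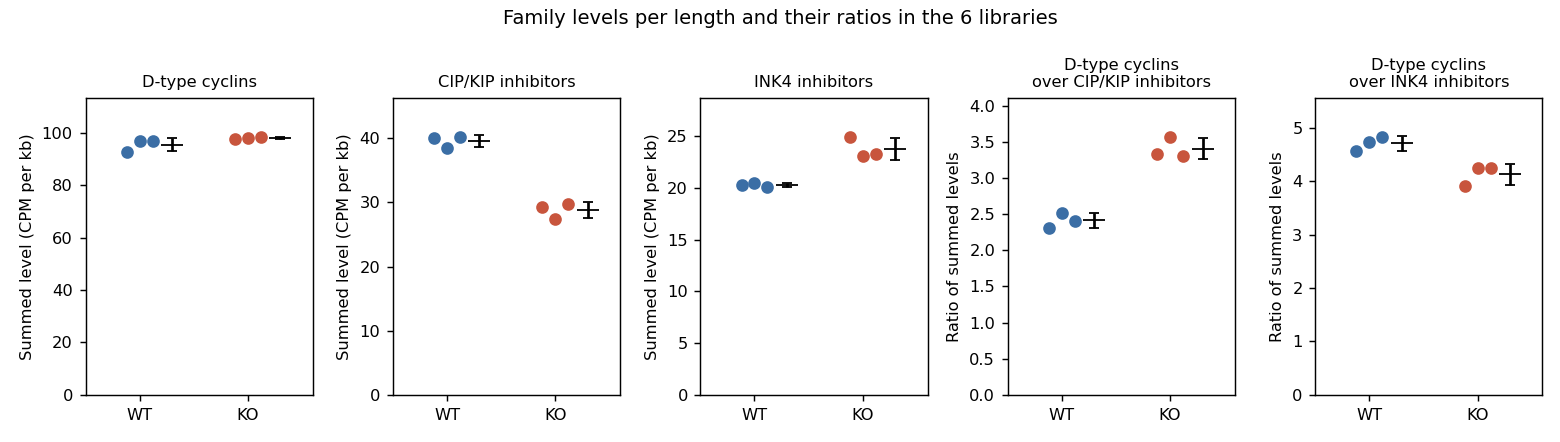
Summed level of each family in CPM per kb of exon sequence, and the ratio of the D-type cyclin sum to each inhibitor family, in every library (linear axes from 0; bars are mean ± SD over 3 libraries). The ratio to the CIP/KIP genes is 2.41 ± 0.104 in wild type and 3.41 ± 0.144 in the knockout, and that to the INK4 genes is 4.71 ± 0.139 and 4.13 ± 0.194.

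Other genes with the most similar profile over the 6 libraries were looked up for the 4 changed members by the Pearson correlation of log2 CPM, taking genes whose mean reached 5 CPM. For CDKN1A they were RUBCN (r = 0.999) and MYO19 (r = 0.998), for CDKN1B FAM8A1 (r = 0.999) and NGDN (r = 0.998). For CDKN2B they were DOCK8 (r = 0.997) and MYO1D (r = 0.995), and for CDKN2D PTAR1 (r = 0.998) and UNKL (r = 0.997). The 6 points fall into 2 groups, so these values describe mostly the group difference: r was above 0.95 for 1403 of 10553 genes with CDKN1A and for 1539 with CDKN1B, but for 265 with CDKN2B and 444 with CDKN2D.

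CDK4 and CDK6, the kinase partners of the D-type cyclins, changed in opposite directions. Of 8 G1 kinases and kinase-activating genes 2 rose and 2 fell (median log2 fold change 0.04, against 0.00 over all genes). Over all tested genes 29.4% rose and 30.7% fell. CDK4, the main kinase partner, rose from 237 ± 8.22 to 282 ± 2.16 CPM (log2 fold change 0.25, SE 0.03, edgeR adjusted p = 1.8e-05), and was at 0.17 relative to its neighbours. CDK6, its close relative, fell from 126 ± 2.83 to 85.3 ± 3.45 CPM (-0.56, SE 0.04, edgeR adjusted p = 6.1e-08), and relative to its neighbours, which had a median of -0.29, it was at -0.27. The kinase chaperone gene CDC37 rose (0.22, SE 0.04; relative to its neighbours -0.04, not called) and the phosphatase gene CDC25A fell (-0.15, SE 0.05). CDC25A lost its call without wild-type replicate 2 (-0.11) or 3 (-0.13), or knockout replicate 2 (-0.15) or 3 (-0.13).

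Downstream of the kinases, 4 of 13 pocket protein, E2F and DP genes rose and 3 fell, with a median of 0.03. The shares over all tested genes were 29.4% and 30.7%. The repressor E2F6 (0.45, SE 0.06), the activator E2F3 (0.38, SE 0.04) and E2F5 (0.27, SE 0.06; relative to its neighbours 0.42) rose. E2F2 fell from 17.3 to 12.1 CPM (-0.51, SE 0.07; relative to its neighbours -0.26), the atypical repressor E2F7 fell (-0.38, SE 0.06), and RB1, the gene of RB itself, fell slightly (-0.13, SE 0.03). Of 12 genes for E- and A-type cyclins and E2F-driven S phase proteins 7 fell and none rose by edgeR, with a median of -0.13. Over all tested genes 30.7% fell and 29.4% rose. At an unadjusted p below 0.05 the counts of the list were 9 and 0, by DESeq2 6 and 0 and by limma-voom 7 and 0. The thymidylate synthase gene TYMS fell from 203 ± 1.74 to 126 ± 1.99 CPM, the helicase subunit gene MCM5 from 162 to 121 CPM and the cyclin gene CCNE1 fell by 0.43 (SE 0.07) on the log2 scale. Relative to their neighbours TYMS was at -0.50 and kept its call, while MCM5 (-0.07) and CCNE1 (-0.12) lost theirs.

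Of 10 proliferation markers 4 rose and 2 fell, with a median of 0.02, where 29.4% of all tested genes rose and 30.7% fell. The survivin gene BIRC5 (0.23, SE 0.05), the mitotic kinase gene PLK1 (0.13, SE 0.05) and CDK1 (0.13, SE 0.05) rose, and the transcription factor gene FOXM1 (-0.35, SE 0.05) and the kinase gene AURKA (-0.14, SE 0.03) fell. The count of markers that rose was 1 or 2 when wild-type replicate 2 or 3 or any knockout library was left out. PLK1, whose groups overlapped, lost its call without wild-type replicate 2 (0.12) or 3 (0.09) or knockout replicate 2 (0.12) or 3 (0.12). CDK1 lost it without wild-type replicate 1 (0.06) or 2 (0.15) or knockout replicate 1 (0.12), 2 (0.13) or 3 (0.14), and was at -0.22 and called lower relative to its neighbours. In that fit 1 marker of the list rose and 4 fell. BIRC5 (0.10) and FOXM1 (0.00) lost their call relative to the neighbours as well.

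Among 18 genes of the ligases that turn over the inhibitors and D-type cyclins 5 rose and 5 fell (median -0.05). Over all tested genes 29.4% rose and 30.7% fell. Without wild-type replicate 1 the lower count of the list was 9. AMBRA1, which targets D-type cyclins for breakdown, rose from 22.8 to 33.2 CPM (0.54, SE 0.05). FBXW7 (0.44, SE 0.06), which targets cyclin E, and CKS1B (0.38, SE 0.04), the cofactor with which SKP2 recognises the CDKN1B protein, rose. The coactivators of the anaphase-promoting complex FZR1 (-0.57, SE 0.06) and CDC20 (-0.32, SE 0.03) fell, as did RNF123 (-0.20, SE 0.04), which acts on the CDKN1B protein in G1. Relative to the neighbours CKS1B was at 0.22 and kept its call, while FBXW7 (0.07), FZR1 (-0.05) and CDC20 (-0.06) lost their call, and the lower count of the list was 3.

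**Figure D5:**
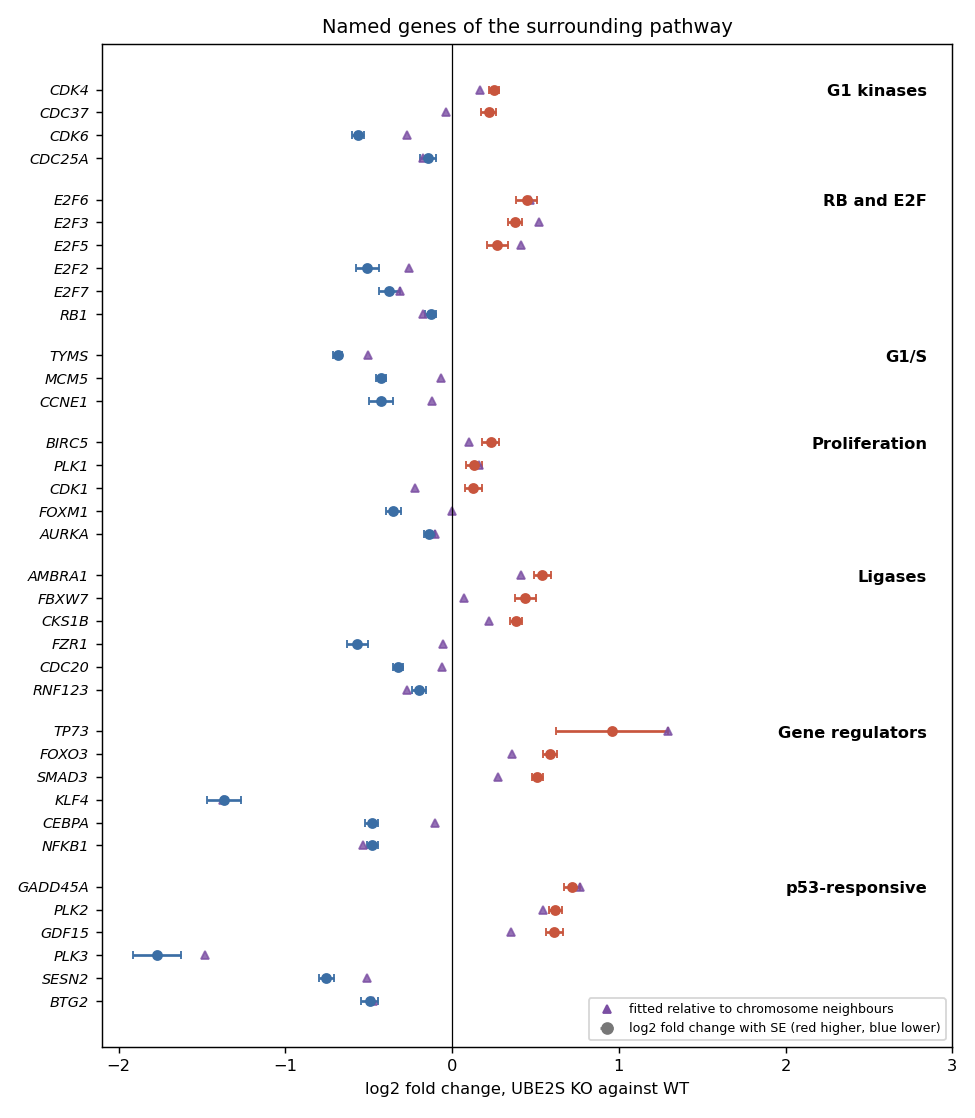
Log2 fold change (circles, with standard error) of the 36 named genes around the inhibitors and D-type cyclins, by list, and the change fitted relative to the chromosome neighbours (triangles). CDK4 and CDK6 lie on opposite sides of 0, and the triangles of FZR1, CDC20, MCM5 and FOXM1 lie near 0.

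Of 30 genes for factors that act on the inhibitor and D-type cyclin genes 12 rose and 12 fell (median 0.01). The shares over all tested genes were 29.4% and 30.7%. FOXO3, an activator of CDKN1B, rose from 41.6 to 62.6 CPM (0.59, SE 0.04), and SMAD3, the TGF-beta effector that acts on CDKN2B and CDKN1A, rose from 112 to 160 CPM (0.51, SE 0.03). Relative to their neighbours they were at 0.36 and 0.28 and kept their call. KLF4, an activator of CDKN1A, fell from 8.42 ± 0.478 to 3.25 ± 0.188 CPM (-1.37, SE 0.10, edgeR adjusted p = 1.9e-07). CEBPA, a hepatocyte factor that restrains growth, fell (-0.48, SE 0.04; relative to its neighbours -0.10), as did NFKB1 (-0.48, SE 0.03). TP73, a relative of the p53 gene, rose (0.96, SE 0.34) but at under 1 CPM, and its call was lost with DESeq2 (adjusted p = 0.18), with no filter on low counts, without wild-type replicate 2 (0.89) or 3 (0.85) and without knockout replicate 1 (0.89) or 2 (0.93).

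Besides CDKN1A, 18 of 20 p53-responsive genes were tested, and 6 rose and 5 fell (median 0.13), where 29.4% of all tested genes rose and 30.7% fell. GADD45A, a growth arrest gene, rose from 25.1 ± 0.0169 to 41.2 ± 1.64 CPM (0.72, SE 0.05), and PLK2 (0.62, SE 0.04) and the secreted factor gene GDF15 (0.61, SE 0.05; relative to its neighbours 0.35) rose. PLK3 fell from 6.25 ± 0.837 to 1.84 ± 0.0772 CPM (-1.77, SE 0.14), and the stress-induced genes SESN2 (-0.75, SE 0.05) and BTG2 (-0.49, SE 0.05) fell. CDKN1A, at -0.67, lay between SESN2 and BTG2.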

How the data were processed

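RNA was sequenced from 3 wild-type and 3 UBE2S knockout libraries of Huh7 cells, grouped by sample title. The authors deposited estimated counts per gene, not normalized; Bowtie2 2.2.8, HISAT2, StringTie 1.3.1 and DESeq2 are named, without a role, in the submitters' processing notes. No source used here gives the counting program, the strand setting, the annotation or the build. Gene positions came from GENCODE release 29 (GRCh38), matched by identifier for 99.4% of genes. Counts were rounded, filtered by filterByExpr (minimum count 10) and scaled by TMM, and knockout was compared with wild type across all 13265 kept genes by quasi-likelihood tests in edgeR 4.0.16 (R 4.3.3), with Benjamini-Hochberg adjustment at 0.05. The procedure was run on simulated data in which only a small part of the genes was changed. That run does not test it under a change as wide as the one called here. CPM used the TMM-scaled library size. Standard errors came from the fold change and its F statistic, intervals (95%) from the t distribution. For the change relative to neighbours, the median log2 fold change of 25 tested genes on each side was entered as an offset, taken as known without error. Levels per length used the union of exons. Depth of 21840499 to 27910396 counts leaves counting errors of 10.6% in wild type and 8.63% in the knockout for CDKN2D, and of 9.44% and 9.56% for CDKN1C, the tested members with the fewest counts.

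The genes and lists were chosen with earlier results of these data known. Genes named were UBE2S, the 9 members, their nearest neighbours, the closest profiles, and from each of 7 pathway lists up to 3 called genes per direction by size of change; 1 marker gene is not reported here. Alternatives were other scalings and filters, DESeq2 1.42.0, limma-voom (limma 3.58.1), the replicate block, each library left out, and the length of the longest transcript.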

Additional observations from a re-analysis of the deposited data

How the results depend on the processing

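Under 9 alternative fits (RLE, upper-quartile or total-count scaling, no filter on low counts or at least 1 CPM in 3 libraries, DESeq2, limma-voom, the replicate block, and the change relative to chromosome neighbours) and 6 fits with a library left out, CDKN1A, CDKN2B and CDKN2D kept their direction and call. CDKN1A ranged from -0.75 to -0.60 and CDKN2D from 0.48 to 0.83 on the log2 scale. CDKN1B lost its call relative to its neighbours (-0.0689, adjusted p = 0.18) and kept it in the other 14 fits. CCND3 gained a call relative to its neighbours (-0.24) and without wild-type replicate 2 (-0.22). With a library left out it ranged from -0.22 to -0.12. CDKN1C and CCND1 kept their direction without a call, and CDKN2C, never called, ranged from -0.05 to 0.06. Scaling moved the median log2 fold change of all genes to at most 0.01.

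Same-numbered libraries did not deviate together: their deviations from the group means correlated at 0.02, -0.04 and 0.02 across genes. This does not show whether the libraries were prepared in pairs. With the replicate block 3872 genes were higher and 4041 lower, against 3903 and 4072, and CDKN1A was at -0.67 and CDKN2D at 0.73, so it changed no call of the 8 genes.

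With the longest transcript as length, the CCND1 share of the D-type cyclins rose by 0.601 percentage points in the knockout, against 0.290 with all exons. Depth limits CDKN1C and CDKN2D most, and CCND2 could not be tested. The cause of the calls that changed was not tested.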
